A study of Mus musculus with 15 samples.

Results

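A set of 8 regulators that act on germinal centre enhancers beside Kmt2d were followed in B cell lymphomas of mice: the Polycomb genes Ezh1, Ezh2, Eed and Suz12, the histone acetyltransferase genes Crebbp and Ep300, and the corepressor genes Hdac3 and Ncor1. They were chosen by name and make up 8 of the 37583 gene rows in the RNA count tables, and all 8 passed the filter on low counts. The tumour cells carried an empty vector (EV, 4 RNA libraries) or a vector that the labels call sh-kmt2d (sh-Kmt2d, 5 RNA libraries), which by its name expresses a short hairpin RNA against Kmt2d. In both groups cells were isolated from lymphoma tumours without culture, and magnetic CD45R (B220) beads, which bind a surface protein of B cells, served for enrichment. The strain, age and further genotype of the mice and the number of hairpins are not given in the sources used, nor whether each library is a separate animal. Where libraries share an animal, the p-values given here reflect only how these samples scatter, which may be technical. The series also holds H3K4me1/2 peak lists, 3 per group, which were not used here because they carry mm9 coordinates and no gene names.

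Polycomb repressive complex 2 (PRC2) methylates lysine 27 of histone H3 and keeps genes silent. Ezh2 or its paralogue Ezh1 is the catalytic subunit, and Eed and Suz12 are the core subunits without which neither enzyme works. Crebbp and Ep300 encode the paralogous acetyltransferases CBP and p300, which acetylate the same lysine at active enhancers. Ncor1 is a scaffold that docks the deacetylase Hdac3 on repressors such as BCL6 and thereby removes acetyl groups at the same elements. In germinal centre B cells EZH2 and the BCL6-HDAC3 complex hold back exit and cell cycle arrest genes, CREBBP opposes them, and EZH2 and CREBBP are, like KMT2D, often mutated in human lymphoma.

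Total counts on genes ran from 5925745 to 29284830 per library, and sh-Kmt2d replicate 5 had the lowest total. That library stood apart: 22.8% of its alignments were counted on genes, against 37.53% to 49.36% in the other 8. EV replicate 2 held both Xist (75.7 CPM) and the Y-linked Ddx3y (143 CPM). EV replicate 4 and sh-Kmt2d replicate 3 held Xist (200 and 410 CPM) and hardly any Ddx3y (0.21 and 0.25 CPM). The remaining libraries held Ddx3y at 10.1 to 187 CPM and Xist at 0.41 to 5.45 CPM. A link of these genes to the levels below was not tested. Levels are given as CPM, read counts normalised to the library total and scaled by TMM, which compare a gene between libraries but not genes with each other, since transcript lengths were not used here. Means are given ± SD over the 4 EV and 5 sh-Kmt2d libraries (n = 4 and n = 5), and log2 fold changes (sh-Kmt2d against EV) ± SE. The B cell markers Ms4a1 (1909 ± 227 CPM in EV, 2463 ± 688 in sh-Kmt2d), Pax5 (237 ± 50.2 and 212 ± 52.8 CPM) and the antigen receptor chain Cd79b (1941 ± 274 and 7076 ± 7269 CPM) were detected in both groups. Other cell types left smaller sums: 181 to 686 and 155 to 314 CPM for 8 macrophage markers, 110.4 to 168 and 169.6 to 421 CPM for 8 T cell markers, 76.5 to 173 and 13.2 to 109 CPM for 6 platelet markers, in EV and sh-Kmt2d. The sums were 104 to 238 and 36.6 to 161 CPM for 7 stromal and endothelial markers, 6.73 to 209 and 2.40 to 50.1 CPM for 6 neutrophil markers and 27.2 to 671 and 43.1 to 122 CPM for 4 erythroid markers. Of the tested markers, 2 of 8 macrophage, 2 of 8 T cell and 3 of 4 platelet genes lay lower. So did 1 of 2 stromal and endothelial and 1 of 4 erythroid genes. Higher were 2 of 8 B cell and 3 of 8 T cell genes. These counts are by edgeR at an unadjusted p under 0.05, beside 11.1% lower and 17.3% higher among all tested genes. After adjustment DESeq2 called 2 of 4 platelet and 1 of 8 T cell genes lower, beside 2.88% of all genes. It called 1 of 8 B cell and 1 of 8 T cell genes higher, beside 1.51%. Log2 fold changes were negative for 7 of 8 macrophage, 2 of 8 T cell and 2 of 2 stromal and endothelial genes. They were negative for 4 of 4 platelet, neutrophil and erythroid genes each, beside 51.9% of all tested genes. The 8 B cell markers had 4 positive and 4 negative log2 fold changes, from -0.80 to 1.87. None of the markers was at 0 in every library. The part of the other cell types in the results was not tested. In such bulk samples fewer cells of a type and less RNA per cell cannot be told apart.

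Kmt2d, the target of the hairpin, had a lower mean in sh-Kmt2d, but the groups overlapped. It stood at 498, 252, 492 and 94.4 CPM in EV and at 57.4, 46.8, 204, 18.9 and 9.77 CPM in sh-Kmt2d. The library labelled sh-Kmt2d replicate 3 thus held more Kmt2d than the library labelled EV replicate 4, against the order their labels give, and directions drawn from these libraries carry that limit. EV averaged 334 ± 197 CPM and sh-Kmt2d 67.3 ± 78.8 CPM (edgeR quasi-likelihood adjusted p = 0.167). Kmt2d ordered 35 of 36 pairs of libraries as did a long-minus-short index, explained further on, along which most of the 8 genes lay too.

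None of the 8 regulators passed the test between sh-Kmt2d and EV. The edgeR quasi-likelihood test called 0 of the 8 higher and 0 lower at a Benjamini-Hochberg adjusted p under 0.05, where the share of all 13349 tested genes called was 0.0% in either direction. At an unadjusted p under 0.05 it counted 0 of the 8 as lower, against 11.1% of all tested genes, and 0 as higher, against 17.3%. DESeq2 called 0 of the 8 after adjustment (2.88% of all genes with an adjusted p lay lower and 1.51% higher). At an unadjusted p DESeq2 counted 2 of the 8 as lower, Crebbp and Ep300, beside 11.0% of all genes, and 0 as higher, beside 12.9%. On the TMM scale the 4 EV and 5 sh-Kmt2d libraries separated fully for 0 of the 8, where 5.12% of the tested genes lay wholly lower and 5.72% wholly higher. Of the 8 log2 fold changes 6 were negative and 2 positive, beside 51.9% and 48.1% of all tested genes, and their median was -0.54 beside -0.04 over all tested genes. With sample quality weights limma called 4 of the 8 lower and 2 higher, beside 30.3% and 29.8% of all genes.

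**Figure D1:**
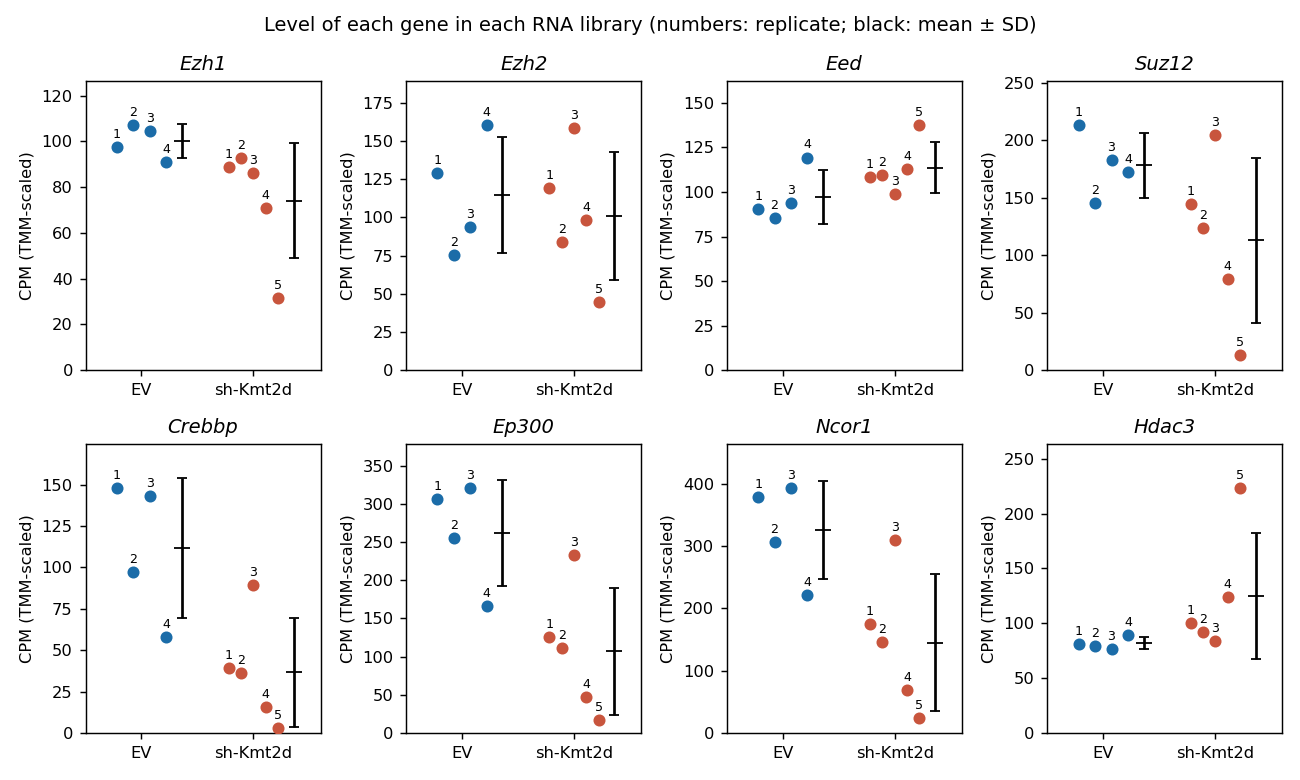
Level of each of the 8 genes in CPM (TMM-scaled, linear axis from 0) in the 4 EV (blue) and 5 sh-Kmt2d (red) libraries, numbered by replicate, with the mean and SD in black. Crebbp, Ep300, Ncor1 and Suz12 reach their lowest values in sh-Kmt2d replicate 5 (3.15, 17.0, 24.0 and 13.2 CPM). Hdac3 and Eed are highest there on this scale (224 and 137 CPM). Scaled by library totals alone they stand at 119.65 and 73.6 CPM in that library, which is then highest for neither.

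The catalytic paralogues of PRC2 and the acetyltransferase paralogues are the pairs that the comparisons below set against each other, and the 250 bases before their annotated starts are therefore shown. The sequences are RefSeq's for mouse build GRCm38.p6, 5′ to 3′, on the strand of the gene: Ezh1 chr11:101226464-101226713 (minus strand), Ezh2 chr6:47595031-47595280 (minus strand), Crebbp chr16:4213405-4213654 (minus strand) and Ep300 chr15:81585964-81586213 (plus strand). Capitals mark a CCAAT box (CCAAT or its reverse complement) or a GC box (GGGCGG or its reverse complement), and the GC boxes of Crebbp overlap each other.
Ezh1: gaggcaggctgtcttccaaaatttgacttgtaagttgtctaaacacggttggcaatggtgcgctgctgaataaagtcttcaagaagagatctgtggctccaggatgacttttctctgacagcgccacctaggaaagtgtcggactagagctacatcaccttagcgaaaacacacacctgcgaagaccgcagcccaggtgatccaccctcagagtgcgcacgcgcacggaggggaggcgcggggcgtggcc
Ezh2: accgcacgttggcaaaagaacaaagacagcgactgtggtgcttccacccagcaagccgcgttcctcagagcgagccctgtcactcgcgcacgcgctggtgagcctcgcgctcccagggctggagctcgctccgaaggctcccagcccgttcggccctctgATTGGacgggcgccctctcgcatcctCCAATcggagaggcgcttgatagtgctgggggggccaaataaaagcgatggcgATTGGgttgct
Crebbp: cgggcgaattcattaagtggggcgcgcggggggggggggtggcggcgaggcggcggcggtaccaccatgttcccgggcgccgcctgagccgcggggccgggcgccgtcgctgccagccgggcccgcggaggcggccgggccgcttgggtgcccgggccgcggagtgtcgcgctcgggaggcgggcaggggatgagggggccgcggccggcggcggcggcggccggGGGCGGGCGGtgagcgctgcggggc
Ep300: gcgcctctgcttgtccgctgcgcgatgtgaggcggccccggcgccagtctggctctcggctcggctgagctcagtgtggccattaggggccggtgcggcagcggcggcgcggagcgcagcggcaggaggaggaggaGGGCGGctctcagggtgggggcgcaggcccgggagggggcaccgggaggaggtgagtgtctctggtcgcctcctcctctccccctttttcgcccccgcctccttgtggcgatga
The windows of 7 of the 8 genes were matched by symbol, with a pair of windows for Ncor1, and each was searched over 300 bases, of which the last 50 follow the start. Ezh2 held 3 CCAAT boxes, at -90, -64 and -11 from the start, where 3.4% of all 32841 mouse promoter windows held 3 or more and 37.4% held any. Ezh2 also held the E2F motif TTTGGCGC at +4, shown in capitals in this stretch of 30 bases.
Ezh2 E2F motif: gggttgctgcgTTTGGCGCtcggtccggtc
An E2F motif, counted as TTTCCCGC, TTTCGCGC, TTTGCCGC or TTTGGCGC on either strand, was found in 2.3% of all windows, and among the 7 genes searched in Ezh2 and Suz12. No window was matched for Hdac3. Crebbp, Ep300, Suz12 and the GC-rich window of Ncor1 held GC boxes (35.7% of all windows), Ezh1 held none of the motifs searched, and the cAMP response element TGACGTCA (1.8% of all windows) was in none of the 7 genes. Such matches describe the letters of these windows only.

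Ezh2, the PRC2 enzyme of dividing cells, was at much the same mean level in both groups and varied widely inside each. It stood at 129, 75.6, 93.7 and 160.4 CPM in EV replicates 1 to 4 and at 119, 84.1, 158, 98.3 and 44.8 CPM in sh-Kmt2d replicates 1 to 5. The groups overlapped over nearly the whole range, with the libraries labelled EV replicate 4 and sh-Kmt2d replicate 3 at the top and sh-Kmt2d replicate 5 at the bottom. EV averaged 115 ± 37.7 CPM and sh-Kmt2d 101 ± 42.1 CPM, and the log2 fold change was -0.18 ± 0.38 (edgeR adjusted p = 0.729). Without sh-Kmt2d replicates 4 and 5 the value was 0.08 ± 0.30 (adjusted p = 0.871), so that the direction was not stable.

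Ezh2 followed the proliferation genes of each library. The summed level of 13 proliferation genes (Mki67, Top2a, Ccnb1, Cdk1, Pcna, E2f1, E2f2 and the helicase subunits Mcm2 to Mcm7) was 2178, 1318, 1664 and 2453 CPM in EV and 2042, 1415, 2621, 1639 and 1403 CPM in sh-Kmt2d. Of the 36 pairs of libraries, 33 were ordered the same way by Ezh2 as by this sum, against 15 to 27 for the other 7 genes. The 3 tested genes most like Ezh2 across the 9 libraries, by Pearson correlation of log2 CPM, were Bub1b, a kinase of the spindle checkpoint (r = 0.996), Cep55, a protein of cell separation (r = 0.996), and Dtl, which marks replication factors for destruction in S phase (r = 0.993). Without sh-Kmt2d replicate 5 these correlations were 0.993, 0.990 and 0.992 over 8 libraries. Only 1.8% of all tested genes had a correlation above 0.9 with Ezh2, where 2.6% had one with Eed, 21.1% to 24.8% with Ep300, Ncor1, Crebbp, Hdac3 and Ezh1 each, and 25% with Suz12. These correlations are descriptions over libraries that also differ in depth and read composition.

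**Figure D2:**
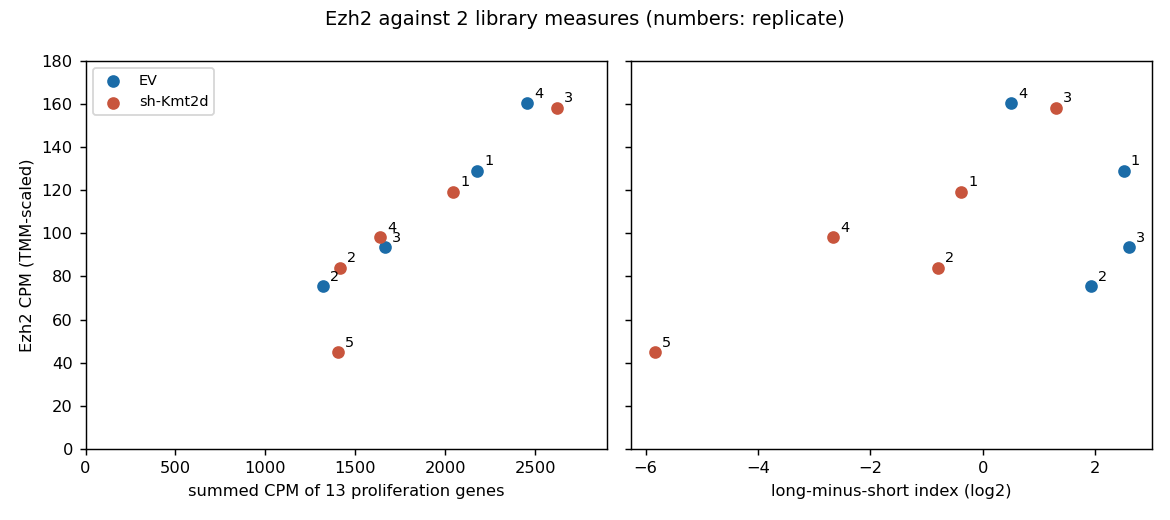
Ezh2 level (CPM, TMM-scaled) of the 4 EV (blue) and 5 sh-Kmt2d (red) libraries against the summed CPM of 13 proliferation genes (left) and against the long-minus-short index explained in the text (right), numbered by replicate. On the left 33 of 36 library pairs keep their order, with sh-Kmt2d replicate 5 (44.8 CPM at a sum of 1403 CPM) below the others of like sum, and on the right 22 of 36 do.

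Ezh1, the PRC2 enzyme that resting cells rely on, was steady in EV and lower in most sh-Kmt2d libraries. The EV values were 97.7, 107, 105 and 90.9 CPM, and those of sh-Kmt2d 89.0, 92.6, 86.0, 71.1 and 31.5 CPM. Of the 5 sh-Kmt2d libraries, 4 lay below the lowest EV library, and replicate 2 lay within the EV range. By library totals alone all 5 lay below the EV range, at 16.88 to 99.72 CPM against 100.39 to 120.31 CPM. The share of all genes that separate on that scale was not counted. EV averaged 100.1 ± 7.31 CPM and sh-Kmt2d 74.05 ± 25.1 CPM, for a log2 fold change of -0.43 ± 0.31 (edgeR adjusted p = 0.326). Without sh-Kmt2d replicates 4 and 5 it was -0.15 ± 0.11 (adjusted p = 0.380), so that those libraries carried most of its size.

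The core subunits Eed and Suz12 differed from each other in how far they varied. Eed, which reads the methyl mark and stimulates the enzyme, stood at 90.6, 85.3, 94.0 and 119 CPM in EV and at 108, 109, 99.1, 113 and 137 CPM in sh-Kmt2d. Its highest level was 1.61 times its lowest, a spread smaller than that of all but 6.2% of tested genes, whose median was 4.71. Of the sh-Kmt2d values 4 lay inside the EV range and replicate 5 above it. That place depends on the scaling, since the TMM factor was 0.536 in replicate 5 and 0.998 to 1.125 in the other libraries. By library totals alone replicate 5 lay below the EV range, at 73.6 CPM against 95.75 to 131.72 CPM. The log2 fold change was 0.22 ± 0.22 (edgeR adjusted p = 0.460) and -0.01 ± 0.26 when libraries were scaled by their totals, which also moved the median of all tested genes from -0.04 to -0.20.

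Suz12, which holds the complex together, stood at 213, 145.1, 183 and 173 CPM in EV and at 144, 123, 205, 79.6 and 13.2 CPM in sh-Kmt2d. The library labelled sh-Kmt2d replicate 3 lay near the top of the EV range and the other 4 below the lowest EV library. The value in sh-Kmt2d replicate 5 rests on 42 counts, with an exact Poisson interval of 9.54 to 17.9 CPM at 95% that covers counting error only. The log2 fold change was -0.65 ± 0.58 (edgeR adjusted p = 0.418). Leaving out sh-Kmt2d replicates 4 and 5 gave -0.17 ± 0.21.

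Crebbp and Ep300 had the most negative log2 fold changes of the set, and both were high in the same libraries and low in the same libraries. Crebbp stood at 148, 97.5, 143 and 58.1 CPM in EV and at 39.4, 36.1, 89.3, 15.5 and 3.15 CPM in sh-Kmt2d. As many as 4 of the 5 sh-Kmt2d libraries lay below the lowest EV library, and the library labelled sh-Kmt2d replicate 3 lay between EV replicates 2 and 4. EV averaged 112 ± 42.4 CPM and sh-Kmt2d 36.7 ± 33.0 CPM. The log2 fold change was -1.60 ± 0.71 (edgeR adjusted p = 0.176, unadjusted p = 0.0502; DESeq2 adjusted p = 0.104). Its value in sh-Kmt2d replicate 5 rests on 10 counts, with a Poisson interval of 1.51 to 5.80 CPM.

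Ep300 stood at 306, 255, 321 and 166.1 CPM in EV and at 125.5, 112, 233, 46.5 and 17.0 CPM in sh-Kmt2d. As for Crebbp, the library labelled sh-Kmt2d replicate 3 lay inside the EV range and the other 4 below it. EV averaged 262 ± 69.9 CPM and sh-Kmt2d 107 ± 83.7 CPM. The log2 fold change was -1.29 ± 0.62 (edgeR adjusted p = 0.187; DESeq2 adjusted p = 0.127). Over the 9 libraries the log2 levels of Crebbp and Ep300 had a Pearson correlation of 0.996, and each had 0.997 and 0.999 with Ncor1.

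Ncor1, the corepressor scaffold, had similar extremes, with 378, 306, 393 and 222 CPM in EV and 174, 146, 309, 69.5 and 24.0 CPM in sh-Kmt2d. The library labelled sh-Kmt2d replicate 3 lay inside the EV range, just above EV replicate 2, and the other 4 below that range. EV averaged 325 ± 78.6 CPM and sh-Kmt2d 144.5 ± 109.6 CPM, for a log2 fold change of -1.17 ± 0.59 (edgeR adjusted p = 0.203). Without sh-Kmt2d replicates 4 and 5 the log2 fold changes were -1.01 ± 0.41 for Crebbp, -0.73 ± 0.31 for Ep300 and -0.62 ± 0.30 for Ncor1 (edgeR adjusted p = 0.183, 0.193 and 0.218). Without the library labelled sh-Kmt2d replicate 3 they were -2.23 ± 0.67, -1.80 ± 0.58 and -1.65 ± 0.56 (edgeR adjusted p = 0.0897 each), and without the library labelled EV replicate 4 they were -1.81 ± 0.78, -1.45 ± 0.68 and -1.31 ± 0.67.

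Hdac3, the deacetylase that Ncor1 carries, had its higher mean in sh-Kmt2d. Its values were 81.2, 79.6, 76.6 and 89.3 CPM in EV and 99.97, 92.4, 83.8, 124 and 224 CPM in sh-Kmt2d. Here 4 sh-Kmt2d libraries lay above the highest EV library and the library labelled replicate 3 lay within the EV range. EV averaged 81.7 ± 5.47 CPM and sh-Kmt2d 125 ± 57.2 CPM. The log2 fold change of 0.61 ± 0.32 (edgeR adjusted p = 0.211) was 0.29 without sh-Kmt2d replicate 5. It was 0.27 ± 0.24 when libraries were scaled by their totals. Over the 9 libraries its log2 level had a Pearson correlation of -0.973 with that of Ncor1.

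On the TMM scale all of these patterns but that of Ezh2 ran along a gradient between the libraries that genes outside the set also show. It was measured by a long-minus-short index, the median log2 CPM of 25 genes with long transcripts (such as Huwe1, Herc1 and Dync1h1) minus that of 25 genes with short transcripts (such as Cox8a and Uqcrq), none of them among the 8. The index was 2.51, 1.93, 2.60 and 0.50 in EV replicates 1 to 4 and -0.38, -0.80, 1.30, -2.66 and -5.84 in sh-Kmt2d replicates 1 to 5. The share of alignments that were not unique was 36.48%, 42.46%, 38.32% and 47.91% in EV replicates 1 to 4. In sh-Kmt2d replicates 1 to 5 it was 50.87%, 53.93%, 44.08%, 57.23% and 73.68%. This share was thus mostly higher where the index was lower, and its link to the gene levels was not tested. Ep300 ordered all 36 pairs of libraries as the index did, Crebbp and Ncor1 35, Suz12 32 and Ezh1 29. Hdac3 ordered 34 pairs and Eed 30 the opposite way, while Ezh2 ordered 22 as the index did. These counts use TMM-scaled levels. By library totals alone Eed was lowest, at 73.6 CPM, in sh-Kmt2d replicate 5, the library of lowest index. The order of Eed along the index thus depends on the scaling. Crebbp, Ep300 and Ncor1 are known as genes with long messenger RNAs.

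**Figure D3:**
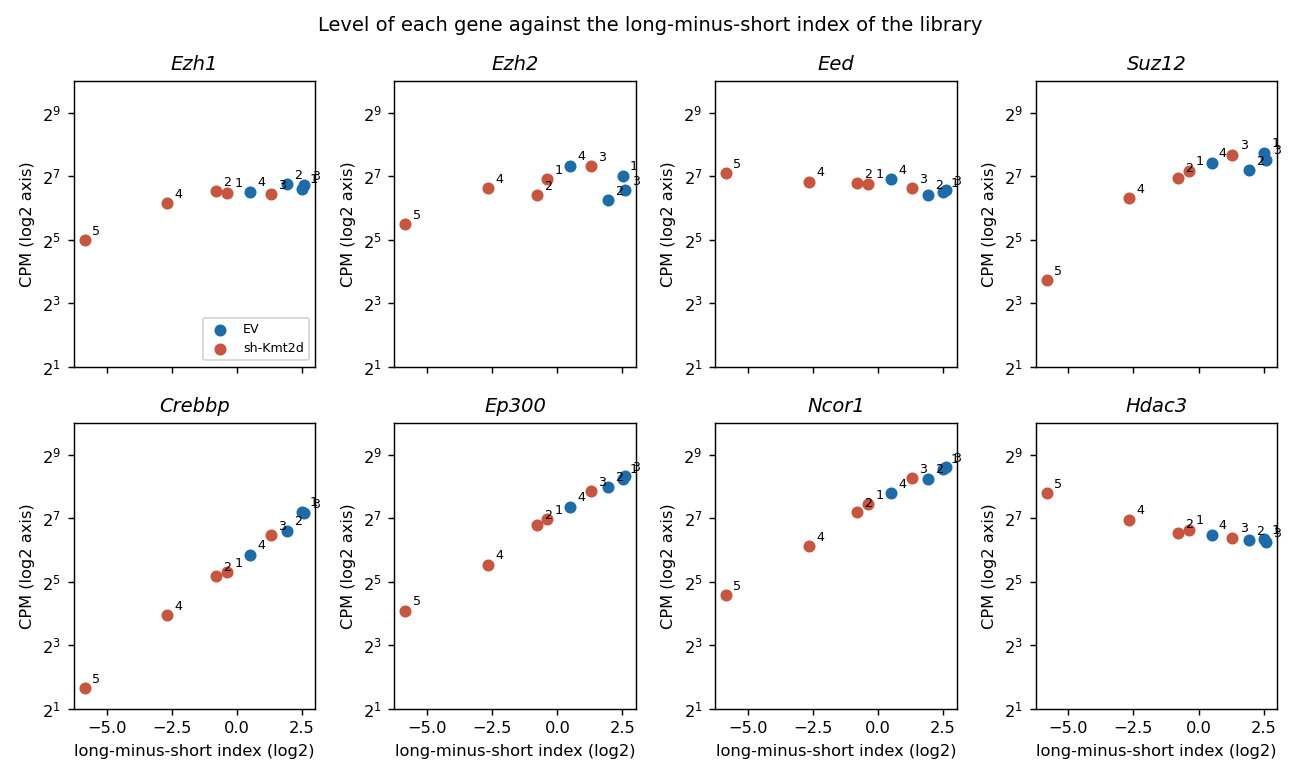
Level of each gene (CPM on a log2 axis) against the long-minus-short index of its library (log2), for the 4 EV (blue) and 5 sh-Kmt2d (red) libraries, numbered by replicate. Crebbp, Ep300 and Ncor1 climb with the index from sh-Kmt2d replicate 5 (index -5.84) to EV replicates 1 and 3 (2.51 and 2.60), Hdac3 descends, and Ezh2 peaks at EV replicate 4 and sh-Kmt2d replicate 3.

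With the index as a term in the edgeR fit, all 8 log2 fold changes changed sign and none passed. The log2 fold changes were then 0.16 ± 0.15 for Crebbp, 0.16 ± 0.16 for Ep300, 0.23 ± 0.16 for Ncor1 and 0.61 ± 0.34 for Suz12. They were 0.20 ± 0.22 for Ezh1, 0.32 ± 0.36 for Ezh2, -0.04 ± 0.15 for Eed and -0.17 ± 0.16 for Hdac3 (edgeR adjusted p between 0.603 and 0.911 for the 8). The index was lower in 4 of 5 sh-Kmt2d libraries than in every EV library, so that its part and that of the vector cannot be told apart by this fit.

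**Figure D4:**
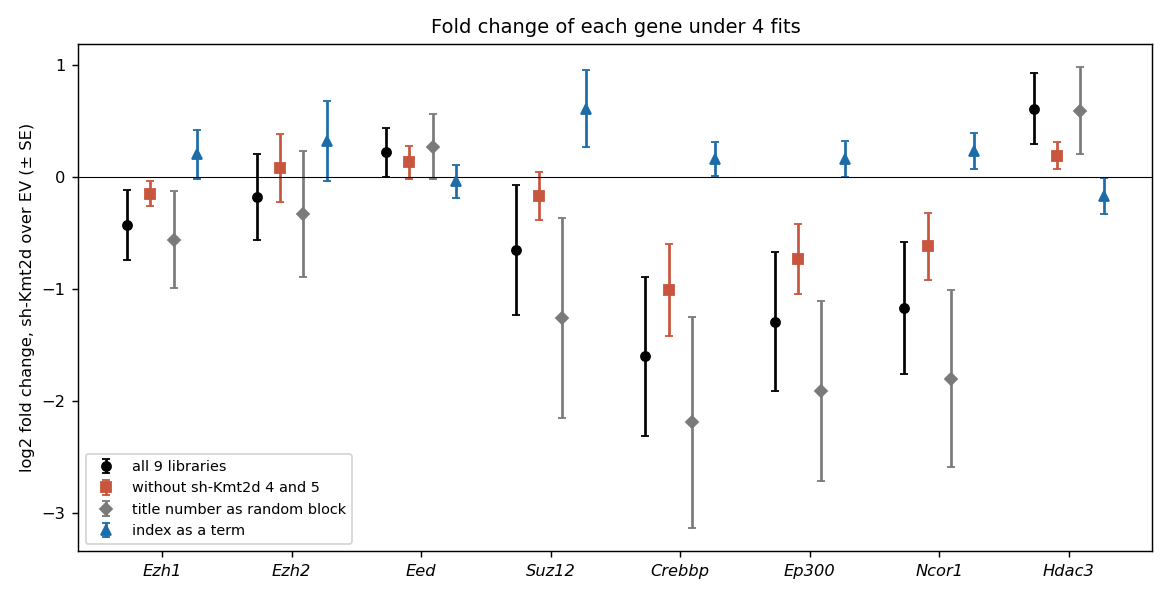
Log2 fold change (sh-Kmt2d against EV) with its SE for each gene, in the fit to all 9 libraries (black), without sh-Kmt2d replicates 4 and 5 (red), with a random block for the title number (grey) and with a term for the long-minus-short index (blue). Crebbp, Ep300 and Ncor1 lie at -1.60, -1.29 and -1.17 in the first fit and at 0.16, 0.16 and 0.23 in the last.

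The library titles begin with a number that is nested in the groups (78 and 87 in EV, 103 and 110 in sh-Kmt2d), so that a difference between these numbers and one between the vectors cannot be told apart. Mean Crebbp levels were 148 and 99.7 CPM under 78 and 87, and 54.9 and 9.33 CPM under 103 and 110. Ep300 averaged 306, 247, 157 and 31.8 CPM and Ncor1 378, 307, 209.7 and 46.8 CPM in the same order. Ezh2 averaged 129, 109.9, 121 and 71.6 CPM and Hdac3 81.2, 81.8, 92.0 and 174 CPM. Given a random block for the title number, limma counted 3 of the 8 lower at an unadjusted p under 0.05 (Crebbp, Ep300 and Ncor1), beside 7.03% of all tested genes, and 0 after adjustment (adjusted p = 0.404 for each), beside 0.0%.

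Ratios of 2 genes inside a library do not depend on library scaling, and 6 were compared over all ways to split the libraries into 4 and 5 (two-sided exact permutation test, smallest possible p 0.0079, adjusted over the 6). None passed after adjustment. The log2 ratio of Ezh2 to Ezh1 compares mRNA counts of the catalytic paralogues and not their share in PRC2. It was 0.40, -0.50, -0.16 and 0.82 in EV replicates 1 to 4, against 0.42, -0.14, 0.88, 0.47 and 0.50 in sh-Kmt2d replicates 1 to 5. The groups overlapped, and the means of 0.14 ± 0.59 and 0.43 ± 0.36 differed by 0.29 (exact permutation p = 0.3333, adjusted 0.3333). The difference was 0.07 without EV replicate 2, 0.19 without EV replicate 3, 0.17 without sh-Kmt2d replicate 3 and 0.51 without EV replicate 4. The ratio of Suz12 to Eed had means of 0.87 ± 0.30 and -0.45 ± 1.72, and ran from 0.53 to 1.23 in EV and from -3.36 to 1.05 in sh-Kmt2d (difference -1.32, exact permutation p = 0.1349, adjusted 0.1619). That difference was -0.59 without sh-Kmt2d replicate 5.

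The ratio of the acetyltransferase paralogues, Crebbp to Ep300, was -1.05, -1.39, -1.16 and -1.51 on the log2 scale in EV, against -1.67, -1.63, -1.38, -1.58 and -2.38 in sh-Kmt2d. All sh-Kmt2d libraries but the one labelled replicate 3, which lay inside the EV range, were below every EV library. The difference of -0.45 between the means of -1.28 ± 0.21 and -1.73 ± 0.38 had an exact permutation p = 0.0476 (adjusted 0.0952), and was -0.29 without sh-Kmt2d replicate 5, whose ratio rests on 10 Crebbp counts. The ratio of Ncor1 to Hdac3 was 2.22, 1.94, 2.36 and 1.31 in EV, against 0.80, 0.66, 1.88, -0.84 and -3.21 in sh-Kmt2d, without full separation. Its means differed by -2.10 (exact permutation p = 0.0476, adjusted 0.0952), and by -1.33 without sh-Kmt2d replicate 5.

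The ratio of Ezh2 to Crebbp, the methyltransferase against the acetyltransferase of the same lysine, had means of 0.07 ± 0.94 and 2.01 ± 1.19 in EV and sh-Kmt2d (difference 1.94, exact permutation p = 0.0476, adjusted 0.0952). The library labelled EV replicate 4, at 1.46, lay among the sh-Kmt2d libraries, which ran from 0.83 to 3.76. The ratio of Kmt2d to Crebbp, which sets the target of the hairpin beside another long messenger RNA, was 1.75, 1.37, 1.78 and 0.70 in EV, against 0.54, 0.37, 1.19, 0.28 and 1.58 in sh-Kmt2d. Its means of 1.40 ± 0.50 and 0.79 ± 0.57 differed by -0.61 (exact permutation p = 0.1349, adjusted 0.1619). Most of the ratios also followed the index: of the 36 pairs of libraries, Ncor1 to Hdac3 ordered 36 as the index did, Suz12 to Eed 33, Crebbp to Ep300 31, Kmt2d to Crebbp 30 and Ezh2 to Ezh1 13, while Ezh2 to Crebbp ordered 33 the opposite way. These tests exchange libraries freely across the title numbers, and means of the 4 numbers allow no p under 0.333.

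The genes most like the other members were again named by Pearson correlation of log2 CPM over the 9 libraries. Crebbp was most like AI504432, the circadian regulator Clock and the splicing scaffold Srrm2 (0.999 each), Ep300 most like the ubiquitin ligase Ubr2 and the nucleoporin Ranbp2 (0.9996 each), and Ncor1 most like Mdc1, Fryl and Rif1 (0.999 each). Hdac3 was most like Bckdk, Dcxr and Slc35b1, Suz12 like Osbp, Tbl1x and Birc2, and Ezh1 like Bfar, Acox3 and Gpd2, all between 0.998 and 0.999. Eed was most like Hpf1 and the predicted genes Gm14108 and Gm12791 (0.975 to 0.977).

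The wider pathway was read from 9 lists with 90 genes, of which 87 were tested. At the adjusted threshold edgeR called 0 of the 87, and at an unadjusted p under 0.05 it counted 9 lower and 11 higher, where 11.1% and 17.3% of all tested genes were so counted. The lower and higher counts given per list below use that same unadjusted threshold and are to be read against those shares. DESeq2 called 2 higher after adjustment, Cdkn1a and Cd83, and 0 lower, beside 1.51% higher and 2.88% lower among all genes with an adjusted p. Log2 fold changes below are from edgeR with their SE, and the genes named had adjusted p between 0.167 and 0.242.

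Among the partners of PRC2 none passed the test. The 8 tested accessory subunits had a median of -0.28 and 0 in either direction at an unadjusted p under 0.05, with the histone chaperone Rbbp4 at 0.61 ± 0.28 and Epop, which links PRC2 to elongin, at 0.60 ± 0.33. The 20 tested members of PRC1, which ubiquitylates histone H2A at Polycomb sites, had a median of -0.14 with 3 lower and 0 higher. Cbx7, which binds methylated lysine 27, stood at 317, 314, 323 and 182 CPM in EV and at 185, 189, 190.1, 166 and 135 CPM in sh-Kmt2d. The library labelled EV replicate 4 thus lay among the sh-Kmt2d libraries, and the log2 fold change was -0.72 ± 0.25. Phc3, a polyhomeotic scaffold, had -1.83 ± 0.63, and -0.29 in the fit with the index.

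The 5 tested genes of the PR-DUB complex, which removes ubiquitin from H2A, and of the lysine 27 demethylases were negative without exception (median -1.14), and 3 were lower. Of all tested genes 51.9% were negative. Asxl2 had -1.34 ± 0.50 and the demethylase Kdm6b -1.38 ± 0.52, or -0.87 and -0.90 when sh-Kmt2d replicates 4 and 5 were left out. In the fit with the index this list had a median of -0.02. Among 11 other acetyltransferases and p160 coactivators the median was -0.69 with 1 lower, Kat6b (-1.46 ± 0.56), and 1 higher, Hat1 (0.64 ± 0.28), which acetylates new histone H4.

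Among the listed partners of Ncor1 and Hdac3, Tbl1xr1, a core subunit of the complex, averaged 137 ± 28.7 CPM in EV and 66.3 ± 34.97 CPM in sh-Kmt2d, and the groups overlapped. Its log2 fold change was -1.04 ± 0.41, or -0.61 when sh-Kmt2d replicates 4 and 5 were left out and -0.08 in the fit with the index. The 9 other deacetylases had a median of -0.26 and 0 in either direction, with Hdac6 at -0.70 ± 0.36 and Hdac4 at -0.96 ± 0.55.

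Genes known to answer to these regulators were read last. Cdkn1a, the cell cycle inhibitor p21 and a target of EZH2 in germinal centre B cells, stood at 7.93, 4.20, 7.76 and 10.1 CPM in EV and at 19.4, 12.2, 24.3, 22.2 and 42.3 CPM in sh-Kmt2d. The groups did not overlap, and the log2 fold change of 1.66 ± 0.39 was called by DESeq2 (adjusted p = 0.00755) and not by edgeR (adjusted p = 0.167). Leaving out sh-Kmt2d replicates 4 and 5 gave 1.31, and the fit with the index gave 1.11. Cdkn2a, the locus of p16 and Arf, had 2.30 ± 0.89 and 1.12 without those replicates. The 5 tested EZH2 targets had a median of -0.18, with 2 higher and 0 lower.

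The 11 genes that CREBBP activates and BCL6 with HDAC3 represses, mainly of antigen presentation, had 10 positive values (48.1% of all tested genes were positive), a median of 1.02 and 7 higher at an unadjusted p under 0.05 (17.3% of all tested genes). When sh-Kmt2d replicates 4 and 5 were left out the median was 0.42 with 5 higher. Cd83, an activation marker, had 307, 286, 322 and 429 CPM in EV and 489, 481, 568, 705 and 745 CPM in sh-Kmt2d, without overlap (0.83 ± 0.27; DESeq2 adjusted p = 0.0223). H2-Ab1, a chain of MHC class II, had 1.42 ± 0.53, and -0.07 in the fit with the index, where the median of the list was -0.15. In the proliferation list 1 of 13 was higher, Cdk1 (1.33 ± 0.57), which had 0.68 without sh-Kmt2d replicate 5 and 0.03 in the fit with the index. Mcm5 had 0.46 ± 0.26, and the median was 0.24.

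**Figure D5:**
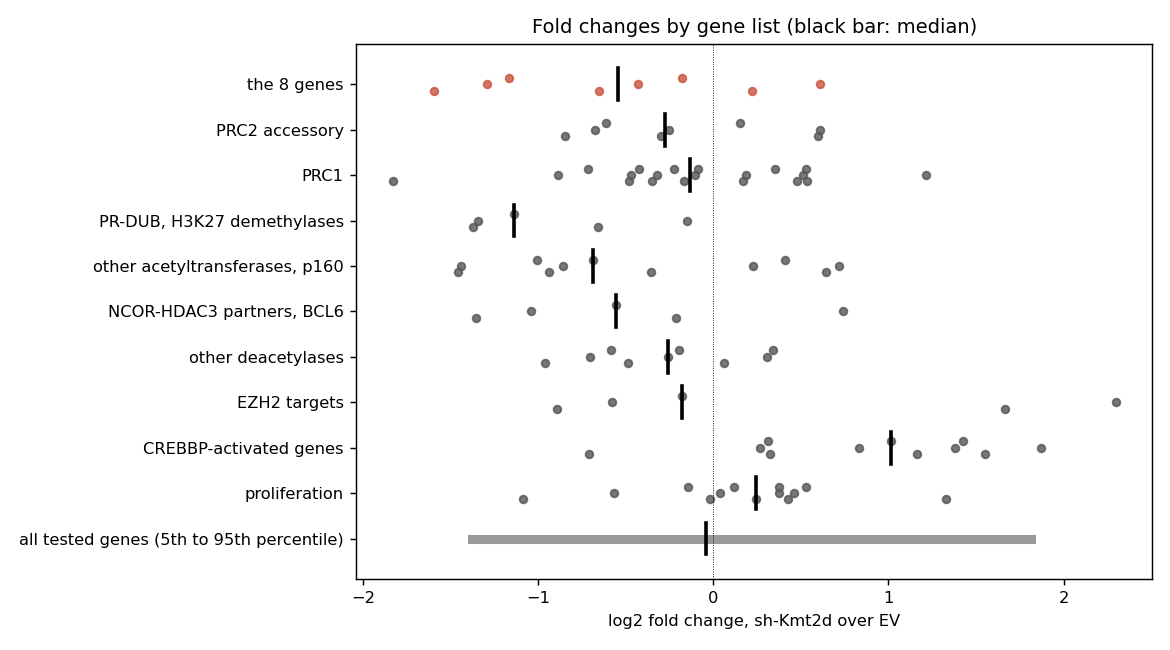
Log2 fold changes of sh-Kmt2d over EV (edgeR) for the 8 genes (red) and the tested members of 9 pathway lists (grey), with the median of each as a black bar, above the range from the 5th to the 95th percentile of all tested genes. Medians run from -1.14 for PR-DUB and lysine 27 demethylases to 1.02 for CREBBP-activated genes, beside -0.54 for the 8 genes and -0.04 for all tested genes.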

How the data were processed

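The deposited RNA tables hold whole-number counts per Ensembl gene, which the authors made with HTSeq 0.6.0 and did not normalize; CASAVA 1.8.2 and mouse build mm9 are also named, all per the submitters' processing notes. The aligner, annotation and strand setting: not given in the sources used here. HTSeq's 5 summary rows stayed out of library sizes and tests (not uniquely aligned 36.48% to 73.68% of alignments, outside genes 2.69% to 12.93%, ambiguous 0.83% to 1.35%). Symbols were found for 87.4% of 37583 identifiers.

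The 4 EV and 5 sh-Kmt2d libraries were compared by the two-sided robust quasi-likelihood test of edgeR 4.0.16 (R 4.3.3; low counts dropped by filterByExpr, TMM scaling), with Benjamini-Hochberg adjustment over 13349 genes and a threshold of 0.05. Standard errors are approximate, from fold change and F statistic. DESeq2 1.42.0 and limma 3.58.1 served as alternatives. The method was tested on simulated data. Ratios used a pseudocount of 0.5 (Python 3.11.15).

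The genes, lists and index genes were chosen with earlier results of these data known. The text names all 8 genes, Kmt2d, the 3 genes most like each, and the 2 of smallest p per list where none passed; some that these rules pick are not reported here. Counts per coding length were planned, but no lengths were used here.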

Additional observations from a re-analysis of the deposited data

Results flagged for a closer look

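In 30 groups of libraries (8 genes, Kmt2d and 6 ratios, in EV and sh-Kmt2d) the gap of the highest or lowest library to its neighbour was compared with the range of the group, and in 3 of them 1 library stood far from the rest, where chance gives about 1 group in 20. They involve sh-Kmt2d replicate 5 in 2 cases and sh-Kmt2d replicate 3 in 1. Hdac3 in sh-Kmt2d replicate 5 was at 224 CPM, with the next library at 124 CPM and the lowest at 83.8 CPM. These are TMM-scaled levels. By library totals alone Hdac3 in replicate 5 was at 119.65 CPM, below sh-Kmt2d replicate 4 at 123.82 CPM, so it did not stand apart. Kmt2d in the library labelled sh-Kmt2d replicate 3 was at 204 CPM, while the next library with that label was at 57.4 CPM and the library labelled EV replicate 4 at 94.4 CPM. The log2 ratio of Crebbp to Ep300 in sh-Kmt2d replicate 5 was -2.38, with the next at -1.67. The gaps were 0.711, 0.755 and 0.710 of the range, close to the critical 0.71 for the Hdac3 level and the ratio.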

How the results depend on the processing

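The counts of the 8 genes past the adjusted threshold stayed at 0 in 17 of 18 alternatives. With sample quality weights limma called 4 lower and 2 higher, beside 30.3% and 29.8% of all genes. Of the alternatives with 0, DESeq2 called 2.88% of all genes lower and 1.51% higher. The others called at most 0.0225% of all genes in a direction, so that a 0 there says little about the 8. Unadjusted, at p under 0.05, edgeR's count of 0 lower (11.1% of all tested genes) became 1 with upper quartile scaling (9.96%), without the filter (10.5%) and with the second title number as a replicate block (14.6%), 2 with DESeq2 (11.0%) and without sh-Kmt2d replicates 4 and 5 (14.3%), 3 with the first title number as a random replicate block (7.03%), and 4 with quality weights (32.6%); leaving out single libraries gave 0 to 3 (1 without EV replicate 4, beside 12.7%; 3 and 2 when sh-Kmt2d replicate 3 or 5 was left out, beside 17.1% and 18.1%). The count of 0 higher (17.3%) became 2 with quality weights (32.3%). What the second title number stands for is not given. In their deviations from group means, same-numbered libraries of the 2 groups correlated from -0.30 to 0.41 and unlike-numbered ones from -0.47 to 0.38. These ranges overlap, so a pairing by this number is neither shown nor excluded. The first title number is nested in the group (block correlation 0.439).

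Directions turned with the index as a term for Crebbp (0.16), Ep300 (0.16), Ncor1 (0.23), Suz12 (0.61), Ezh1 (0.20), Ezh2 (0.32), Eed (-0.04) and Hdac3 (-0.17). Ezh2 also turned with quality weights (0.20), the second title number as a replicate block (0.21), without replicates 4 and 5 of sh-Kmt2d (0.08) and among the single-library omissions, which ranged from -0.41 to 0.03 (0.03 without EV replicate 4, 0.00 when sh-Kmt2d replicate 5 was dropped). Eed turned with total library sizes, to -0.01 in the fit and in the ratio of mean levels. The 6 ratios kept their direction in 13 alternatives each, and no adjusted p passed in those that were tested, which leaves out the ratio of group means, a value with no test; means per title number (replicate block) allow no p under 0.333. The cause of these turns was not tested. Depth limits sh-Kmt2d replicate 5, where Crebbp had 10 counts.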

Other observations

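Of the 90 pathway genes 3 did not pass the filter on low counts. Ezhip, an inhibitor of PRC2 listed under its older symbol AU022751, had 0 counts among the 154717107 gene counts of the 9 libraries, which allows up to 0.0194 CPM over all of them (3 counts; counting error only). Asxl3, a subunit of PR-DUB, had 2 counts in all, and Pcgf2, a PRC1 subunit, had 77 with at most 21 in a library.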
